A study of Homo sapiens with 4 samples.

Results

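Lactylation is the attachment of a lactate-derived acyl group to lysine, and H3K9la is the form of histone H3 that carries it on lysine 9. H3K9la was mapped by ChIP-seq in KYSE30, an established line from a human oesophageal squamous cell carcinoma, in arms named sg3 and V2. The labels list 4 samples, 1 ChIP and 1 input library in each arm, and 1 peak list was used for each arm. The meaning of the arm names was not found in the labels, and the V2 list stands among the files of that arm's input library. According to the title of the series, SIRT3, a deacylase of the sirtuin family found mainly in mitochondria, removes the mark. There are no replicates, so each comparison of the arms sets 1 library beside 1 other, has no replicate check and carries no test.

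The regions described here are dense clusters of H3K9la records. Neighbouring sg3 records on chromosomes 1 to 22 and X were joined into a chain when at most 12.5 kb lay between them, and chains of 8 or more records were kept. This gave 1552 dense chains out of 15299 sg3 chains, of which 6610 were records standing alone. The dense chains held 25107 of 55147 sg3 records, or 45.5%, and 29.4 of the 53.3 Mb that sg3 records cover. Their spans added up to 64.5 Mb, which is 2.13% of the chromosome length. The chains were chosen by the positions of sg3 records, so sg3 values are given as a description. The V2 list and the positions of genes were not used to choose them.

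Long runs of active chromatin marks are known from enhancers of genes that define a cell type, and joining sites across a gap of this size is the usual first step in naming super-enhancers. No enhancer mark was measured here and no such name is given. Squamous epithelium is governed by transcription factors such as TP63 and the grainyhead-like family, and its cells carry keratins, desmosomes and integrin adhesions. AP-1, the dimer of FOS and JUN proteins, binds the palindrome-like heptamer TGACTCA, which reads TGAGTCA on the other strand.

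Promoters are printed first for chain genes whose upstream sequence holds this heptamer, since it was found at different rates inside and outside the chains. Each sequence is the RefSeq (GRCh38.p14) stretch of 250 bases before a transcription start, read 5′ to 3′ on the strand of the gene, with every TGACTCA or TGAGTCA in capitals. All 4 are overlapped by an sg3 record of a dense chain. They were picked from 73 such promoters after the matches were seen, as genes of the lists with roles in squamous cells and growth signalling, so they are examples only. The involucrin gene IVL encodes a scaffold of the cornified envelope (chr1:152908296-152908545, plus strand), S100A2 encodes a calcium-binding protein of basal keratinocytes (chr1:153565845-153566094, minus strand), PLAUR encodes the urokinase receptor (chr19:43670170-43670419, minus strand), and the EGFR sequence lies before a start inside the epidermal growth factor receptor gene (chr7:55109589-55109838, plus strand). The S100A2 and PLAUR sequences are also overlapped by a V2 record, and the IVL and EGFR sequences are not.
IVL: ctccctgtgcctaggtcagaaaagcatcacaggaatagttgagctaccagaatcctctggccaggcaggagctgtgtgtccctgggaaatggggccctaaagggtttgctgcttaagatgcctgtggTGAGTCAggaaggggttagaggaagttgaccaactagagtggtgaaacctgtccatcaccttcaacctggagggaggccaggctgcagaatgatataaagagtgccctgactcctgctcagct
S100A2: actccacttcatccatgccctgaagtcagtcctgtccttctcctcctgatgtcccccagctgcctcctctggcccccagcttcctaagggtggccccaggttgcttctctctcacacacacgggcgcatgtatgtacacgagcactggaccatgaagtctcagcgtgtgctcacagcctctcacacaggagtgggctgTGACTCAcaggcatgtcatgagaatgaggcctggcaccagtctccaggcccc
PLAUR: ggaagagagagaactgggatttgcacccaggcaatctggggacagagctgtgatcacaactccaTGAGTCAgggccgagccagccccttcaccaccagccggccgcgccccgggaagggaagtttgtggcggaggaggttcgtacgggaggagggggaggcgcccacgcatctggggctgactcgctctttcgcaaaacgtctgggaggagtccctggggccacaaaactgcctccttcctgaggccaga
EGFR internal start: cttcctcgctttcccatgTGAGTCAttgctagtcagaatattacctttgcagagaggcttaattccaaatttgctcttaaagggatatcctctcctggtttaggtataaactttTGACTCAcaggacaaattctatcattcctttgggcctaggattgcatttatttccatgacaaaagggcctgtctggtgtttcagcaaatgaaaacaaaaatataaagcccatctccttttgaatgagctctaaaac

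The heptamer was found more often in promoters that carry an sg3 record inside a dense chain than in promoters that carry one elsewhere. Promoters were available for 81.6% of protein-coding genes outside chromosome 8, for which none was given, and for 80.8% of chain genes there. Of 1048 promoters that lay in a dense chain and were overlapped by an sg3 record, 73 held TGACTCA on either strand, which is 6.97% (exact 95% CI 5.50 to 8.68%). Of 4536 promoters overlapped by an sg3 record elsewhere, 138 did, which is 3.04% (95% CI 2.56 to 3.58%). Over all 22012 promoters the share was 3.46%, and over the 477 promoters that lay in a chain without an sg3 record on them it was 1.47% (95% CI 0.592 to 3.00%). With 1 promoter per gene the first 2 shares were 7.05% and 3.16%. Alternative starts of a gene share sequence, and all intervals here cover counting error only.

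The same promoters had fewer CG dinucleotides, with a median of 18 in 250 bases in the chains and 23 elsewhere, both among promoters with a record. TATAAA, the core of the TATA box, was in 6.77% (95% CI 5.33 to 8.47%) of the chained set and 3.84% (95% CI 3.30 to 4.44%) of the other set, with 9.02% over all promoters. CCGGAAG, a motif of ETS factors, went the other way, with 11.6% (95% CI 9.76 to 13.7%) against 16.9% (95% CI 15.9 to 18.1%) and 10.6% over all. CCAAT was in 26.0% and 26.9%, with overlapping intervals, and GGAATG, the core of the TEAD motif, in 9.45% and 8.27%, also overlapping. All motifs were searched on both strands, and none of the strings contains another. The heptamer share was not adjusted for base composition. A match is a string of letters and not a site of binding.

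Some chains hold microRNA genes, and 5 mature sequences are printed, from microRNAs well known in epithelium and carcinoma and from a locus where 2 hairpins share a seed. They were chosen after their chains were known. The seed, bases 2 to 8, is in capitals, and the sequences are from RefSeq.
hsa-miR-205-5p: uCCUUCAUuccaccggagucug
hsa-miR-21-5p: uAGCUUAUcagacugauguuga
hsa-miR-944: aAAUUAUUguacaucggaugag
hsa-miR-181c-5p: aACAUUCAaccugucggugagu
hsa-miR-181d-5p: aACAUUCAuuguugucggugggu

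The hairpin of miR-205, a microRNA of squamous and basal epithelium, lies at chr1:209432133-209432242 inside a chain of 26 records that spans 96394 bases and is covered over 78.6% of that span. No protein-coding gene overlaps this chain, and the nearest, CAMK1G, is 144839 bases away. V2 had 39 records there and 20 of the 26 sg3 records were overlapped by one. The hairpin of miR-21, an abundant microRNA in carcinomas, lies at chr17:59841266-59841337 in a chain of 48 records over VMP1, of which 44 were overlapped by V2. miR-944 lies within the TP63 gene, in a chain of 54 records. miR-181c and miR-181d have the same seed and lie together in a chain of 9 records with 8 V2 records and no dense V2 chain. In all, 95 of 1558 hairpins lay in a dense sg3 chain, or 6.10%, and 61 lay in a dense V2 chain, 58 of them in both.

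The dense chains differed widely in length and in how fully records filled them. The number of records ran from 8 through a median of 12 to 166, and the interquartile range was 9 to 18. The span ran from 8041 bases through a median of 31112 bases to 404821 bases. Records covered between 8.34 and 93.3% of the span, with a median of 43.4% and an interquartile range of 33.0 to 55.4%. The gaps inside chains had a median of 618 bases and an upper quartile of 1530 bases, far under the gap allowed. Over all sg3 records, 169 gaps fell in the last 500 bases up to the limit and 166 in the first 500 bases past it. Just outside the threshold stood 356 chains of 7 records, with a median covered share of 39.3%, and just inside 247 chains of 8 records, with 41.3%. The 7-record chains included the strongest record of the sg3 list (-log10 q 212.5, in a chain on chromosome 5 without a protein-coding gene) and a chain at MFSD6 and NEMP2. The 8-record chains included ACTB, the gene of cytoplasmic beta-actin, and a chain over MIR34AHG, the host gene of miR-34a, with GPR157 the nearest protein-coding gene.

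**Figure D1:**
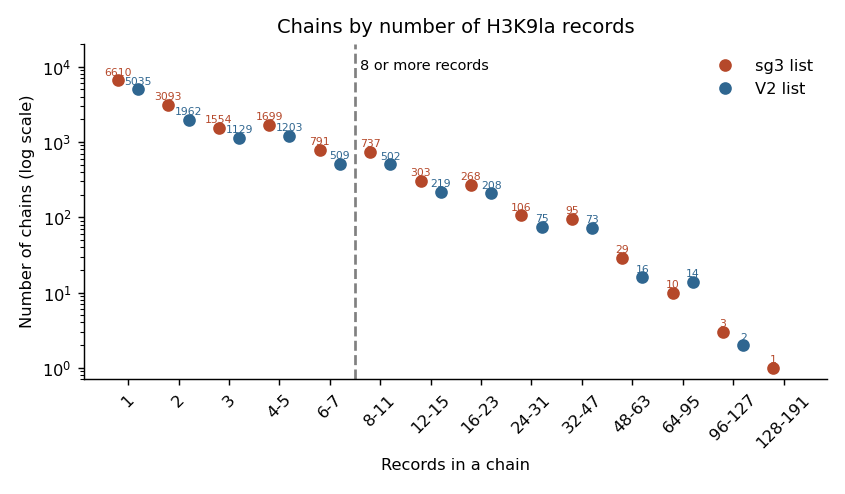
Number of chains (vertical axis, log scale) by number of records in the chain (horizontal axis, in bins) for the sg3 list and the V2 list, each chained across gaps of up to 12.5 kb. The dashed line marks 8 records; the 737 sg3 chains of 8 to 11 records form the largest bin to its right, and the longest sg3 chain, with 166 records, stands alone in the last bin.

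A count of records is not a measure of how much signal a locus holds, since the caller can report 1 broad record or several narrow ones. Of the 745 sg3 records of 5 kb or more, 634 lay in dense chains. The widest sg3 record outside them, of 30308 bases at ERCC1 and FOSB, belonged to a chain of only 4 records. The ACTB chain had 8 sg3 records, the widest of 14157 bases, and 17 V2 records. That widest record, at chr7:5549551-5563707, lies outside ACTB, which ends at 5530601. In 245 of the 1552 chains there were more V2 than sg3 records.

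Within a chain the records were far from even. The authors' fold enrichment, the ratio of ChIP pileup to background at a summit, was at its highest record a median of 2.32 times the median of the chain (interquartile range 1.85 to 2.89). The median fold enrichment of records in chains, 5.03, was close to the 4.84 of records elsewhere. Their median width was 691 bases against 572 bases, and their median -log10 q was 13.4 against 12.7.

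The chain with the most records lay around HES1, a repressor that acts downstream of NOTCH receptors. It ran over chr3:193773211-194178031 (hg38), held 166 records over 404821 bases and was covered over 55.2% of that span. HES1 and LOC102724877 lie in its right-hand part, together with 8 lncRNA genes along its length. V2 had 137 records in the span, in dense V2 chains of up to 72 records, and overlapped 93 of the 166 sg3 records. The strongest record of each list, by -log10 q, overlapped one another, 14.1% of the way along the chain and far from the HES1 gene.

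ERRFI1, a feedback inhibitor of the EGF receptor, sat at the left edge of the second chain, chr1:8020383-8272283. It held 115 sg3 records over 251901 bases, and V2 had 120 records, of which a dense V2 chain took 115. Of the sg3 records 97, or 84.3%, were overlapped by a V2 record, and the strongest records of the lists again overlapped.

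The third chain overlapped no protein-coding gene and no lncRNA gene. It ran over chr13:73211418-73477408 with 112 records, and its nearest protein-coding gene, KLF5, a transcription factor of proliferating epithelium, is 133880 bases away. Chains of 28 and 17 records lie between it and KLF5, at 55157 and 1385 bases from the gene, so 3 dense chains have that gene as the nearest. V2 joined most of the same stretch differently, with a dense chain of 89 records that overlapped all 3 sg3 chains.

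The remaining chains of the 10 longest by record count lay around genes of diverse roles. A chain of 104 records (chr14:49852244-50116569) overlapped ARF6, a GTPase of membrane recycling, with VCPKMT and NEMF. A chain of 89 records on chromosome 1 overlapped no protein-coding gene, and TOMM20, a mitochondrial import receptor, lies 14196 bases away. On chromosome 8 there were chains of 86 records at RNF19A and ANKRD46, of 83 at LRATD2 and of 77 at MYC, the growth-promoting transcription factor. A chain of 75 records on chromosome 12 overlapped AMN1 and the histone gene H3-5, and a chain of 70 on chromosome 1 overlapped ST3GAL3, ARTN and IPO13. V2 had between 71 and 110 records in each of these 7 spans and a dense chain in every one of them.

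**Figure D2:**
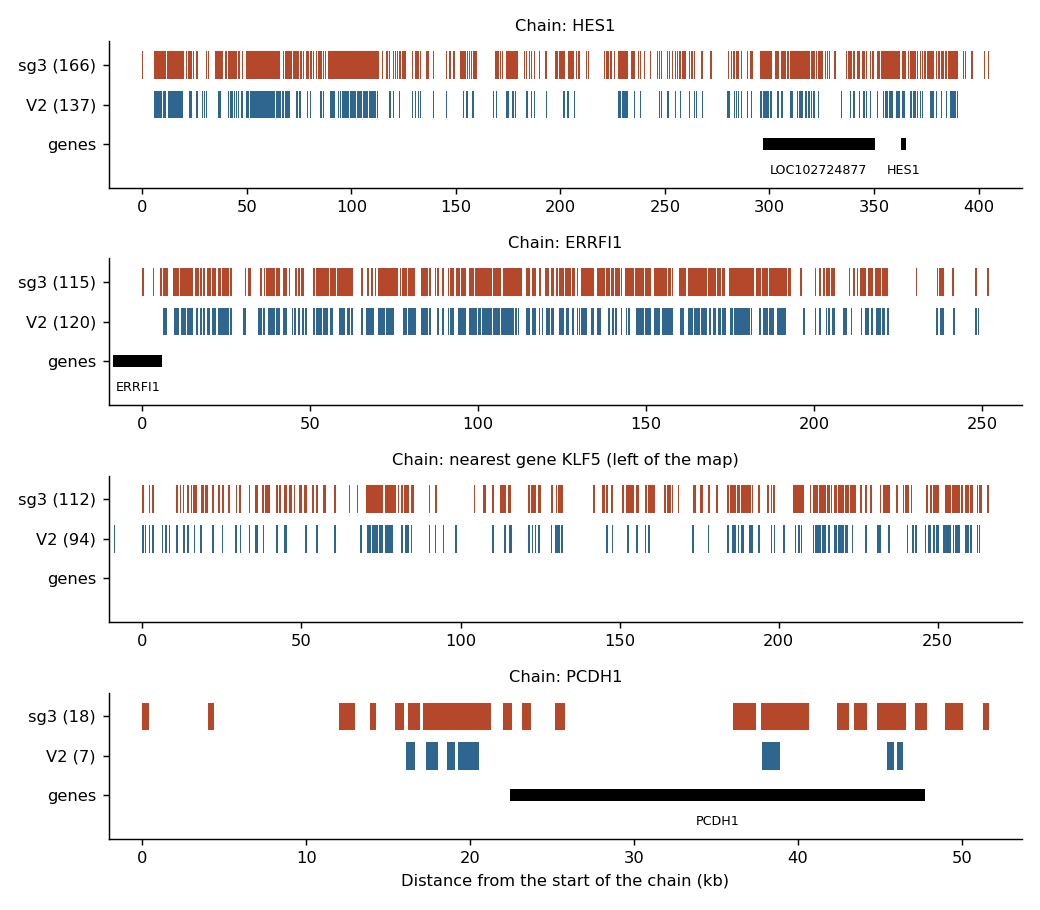
Records of the sg3 list (upper row) and the V2 list (middle row) and protein-coding genes (black bars) along 4 chains, with the distance from the start of the chain in kb on the horizontal axis and the number of records of each list beside its row. The chains at HES1, at ERRFI1 and near KLF5 are filled by both lists, and the PCDH1 chain has 18 sg3 and 7 V2 records.

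By -log10 q the strongest single records lay in other chains. TOM1L2, an adaptor of membrane traffic, had the highest, at 201.5, in a record of 13670 bases within a chain of 36 records shared with DRC3. The chain of PLAUR, KCNN4, LYPD5, SMG9 and IRGC followed with 196.9 and 41 records, and a chain of 41 records near ANAPC1 with 196.7. A chain of 19 records that overlaps MPRIP, which binds myosin phosphatase, had 195.1, and a chain of 24 at NOTCH1 had 194.9. The strongest record of the PLAUR chain, at chr19:43696751-43712261, lies between PLAUR and IRGC and outside all the genes listed for it. The strongest record of the MPRIP chain, at chr17:17007783-17016412, lies outside the gene, which begins at 17042457. The NOTCH1 record of 12724 bases begins beyond the gene, and V2 had its strongest record of that chain at the same place.

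The chain with the fullest cover lay on the X chromosome, at chrX:115843394-115889341, where 11 records filled 93.3% of 45948 bases. It overlaps the lncRNA genes DANT1 and DANT2 and no protein-coding gene, the nearest being PLS3 at 192533 bases. V2 covered 69.1% of the same span with 30 records, and each of the 11 sg3 records was overlapped. These genes flank DXZ4, an array of tandem repeats, and how reads with several alignments were treated is not stated in the sources at hand. The next in cover were NIBAN2 with 89.9%, TRIM16 with 89.7%, a chain over SULT1A3, SLX1A and BOLA2B with 88.9% and FOXK1 with 88.6%. TRIM16 and the SULT1A3 group have near-identical copies nearby in the genome, so the placement of their records is uncertain. The SULT1A3 chain had 8 sg3 records and its copy SULT1A4 lies in a chain of 11. LOC102724428, a copy of the kinase gene SIK1 and also named after its values were seen, is likewise in a chain of 49 sg3 records and SIK1 itself in one of 44, with 57 and 54 V2 records.

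Chaining the V2 list the same way gave 1109 dense V2 chains, with a median of 12 records, a median span of 30795 bases and a median covered share of 36.1%. Of the 1552 dense sg3 chains, 973 overlapped a dense V2 chain, which is 62.7% (exact 95% CI 60.2 to 65.1%). Another 571 contained V2 records without a dense V2 chain, and 8 contained no V2 record. In the other direction 999 of 1109 dense V2 chains, or 90.1% (95% CI 88.2 to 91.8%), overlapped a dense sg3 chain. None of the V2 chains was free of sg3 records (0 of 1109, which allows a share of up to 0.271%, or 3 counts of the total), and 92 of the 110 without a dense sg3 chain overlapped an sg3 chain of 5 to 7 records.

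Overlap with a dense V2 chain was nearly complete in long chains and not in short ones. It was found in 283 of 737 chains of 8 to 11 records (38.4%, 95% CI 34.9 to 42.0%), in 356 of 478 chains of 12 to 19 (74.5%, 95% CI 70.3 to 78.3%), in 258 of 261 chains of 20 to 39 (98.9%, 95% CI 96.7 to 99.8%) and in all 76 chains of 40 or more (95% CI 95.3 to 100%). A V2 chain must itself reach 8 records, and a longer span has more room for them. Among the 7-record chains outside the rule 16% overlapped a dense V2 chain, and among the 8-record chains 28.7%. The V2 list is the shorter, with 39258 records on these chromosomes. With both lists cut to that number the share over all chains was 84.6%, and with V2 chains of 2 or more records counted it was 98.4%.

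**Figure D3:**
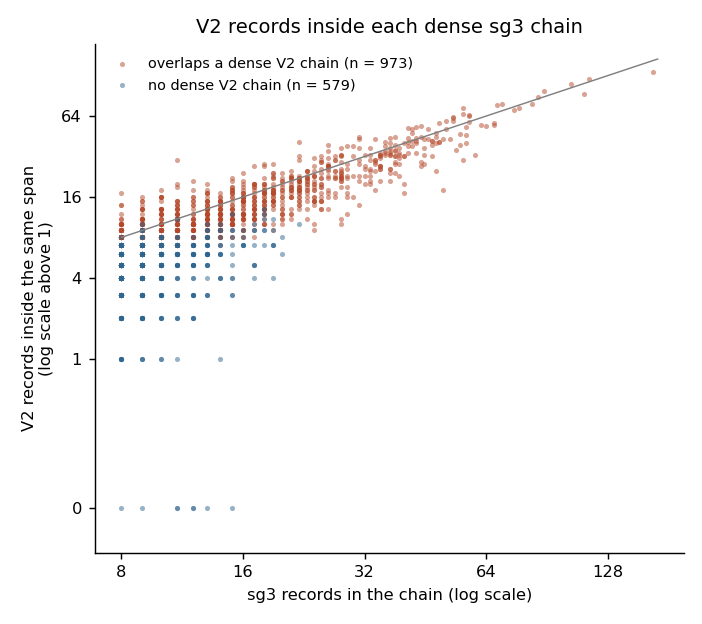
Each point is 1 of the 1552 dense sg3 chains, with its sg3 records on the horizontal axis (log scale) and the V2 records inside its span on the vertical axis (log scale above 1). The diagonal marks equal numbers; 245 chains have more V2 than sg3 records, and the HES1 chain, with 166 and 137, is among those below it. The 579 chains without a dense V2 chain lie at the lower left, 8 of them at 0.

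The 2 lists were closer in number inside the chains than elsewhere. The ratio of sg3 to V2 records was 1.24 inside dense sg3 chains and 1.58 elsewhere, and the ratio of covered bases was 1.61 inside, from 29.4 and 18.2 Mb, and 1.94 elsewhere. Of all V2 records, 20249, or 51.6%, lay in the spans of dense sg3 chains. Read depth is unknown for both lists, so these ratios describe the lists as called.

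Record by record, chained sg3 records were overlapped by a V2 record more often than the others. The share was 60.6% (95% CI 60.0 to 61.2%) of 25107 chained records and 45.7% (95% CI 45.1 to 46.2%) of 30040 others, with 52.5% over all 55147 sg3 records as the background. The order held at like strength. Between -log10 q 10 and 20 the shares were 58.5% (95% CI 57.3 to 59.6%) and 41.1% (95% CI 40.1 to 42.1%), and between 20 and 40 they were 86.4% (95% CI 85.4 to 87.4%) and 71.3% (95% CI 70.1 to 72.4%). At 40 and over both were high, at 99.1% and 95.3%. It held in the 4 ranges of record width as well, for example 47.2% against 37.6% from 400 to under 700 bases. Given the joint strength and width mix of the chained records, the others would have a share of 51.2%. V2 records covered 18.2 Mb of the 64.5 Mb of dense chain spans and 12.3 Mb in all the rest. A chained record therefore lies where V2 records are denser, and the shares were not adjusted for this. Whether they exceed what local V2 density gives by position was not tested.

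The outermost records of a chain were overlapped less often than those inside it. V2 records lay on 43.0% (95% CI 41.2 to 44.7%) of the 3104 outermost records and on 63.1% (95% CI 62.4 to 63.7%) of the 22003 inner ones. The outermost records were weaker, with a median -log10 q of 9.94 against 14.2, and narrower. Between -log10 q 10 and 20 the shares were still 43.6% (95% CI 40.2 to 47.0%) and 60.4% (95% CI 59.2 to 61.6%). The strongest sg3 record and the strongest V2 record of a chain overlapped in 919 of the 1544 chains with a V2 record, or 59.5% (95% CI 57.0 to 62.0%). The share was 60.3% in chains of 8 to 11 records and 63.1% in those of 12 to 19. It was 54.0% at 20 to 39 records and 48.7% (95% CI 37.0 to 60.4%) at 40 or more.

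Few chained records overlapped a promoter, and their share was lower than that of the other records. A promoter here is only the 250 bases before a start, so a record wholly downstream of the start is not counted for it. With chromosome 8 left out for want of promoters, 3.65% (95% CI 3.42 to 3.90%) of chained sg3 records overlapped one, against 12.6% (95% CI 12.2 to 13.0%) of the others. This too held in each range of strength. At -log10 q of 40 and over the shares were 10.9% (95% CI 9.87 to 11.9%) and 31.9% (95% CI 30.2 to 33.6%). A promoter lay inside 726 of the 1476 chains off chromosome 8, or 49.2%, but the strongest record of the chain overlapped a promoter in only 158, or 10.7% (95% CI 9.17 to 12.4%). By the rule a chain has many records for each start it contains.

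**Figure D4:**
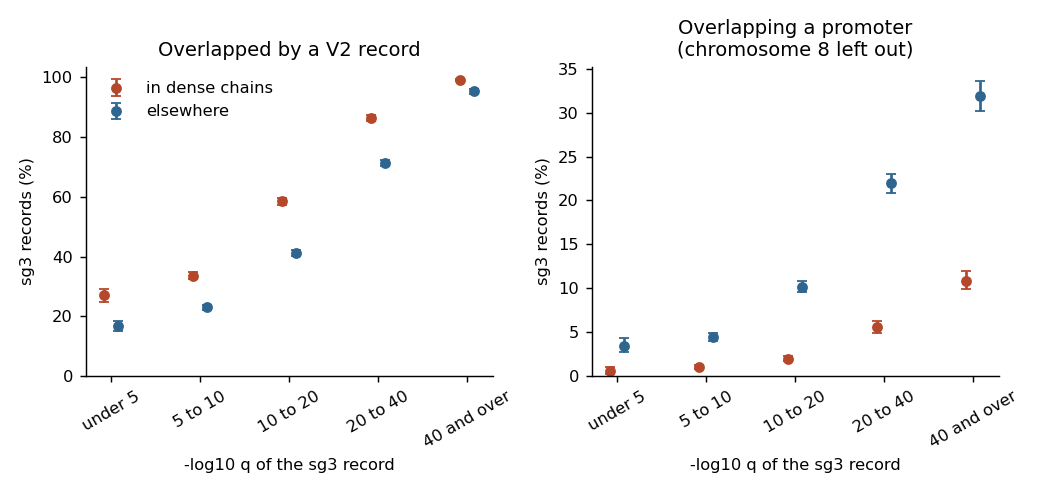
Percent of sg3 records overlapped by a V2 record (left) and overlapping a promoter (right, chromosome 8 left out) by range of -log10 q, for records in dense chains and elsewhere, with exact 95% intervals for counting error. A promoter is the 250 bases before a start. In each range the chained records are higher on the left (86.4% against 71.3% from 20 to 40) and lower on the right (10.9% against 31.9% at 40 and over).

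In 98 of the 1552 chains V2 overlapped few of the sg3 records, at most 1 in 4. The rule took the 5 of these with the most records. They were a chain of 20 records near CEBPB, an inflammatory and differentiation factor, with 5 records overlapped, a chain of 19 in SHB, an adaptor of tyrosine kinases, with 4, a chain of 18 at PCDH1, a protocadherin of airway epithelium, with 4, a chain of 17 at LIPC, hepatic lipase, with 4, and a chain of 17 over 7 histone genes on chromosome 6, among them H3C4, H3C6 and H2AC8, also with 4. Their strongest records were modest, with -log10 q from 22.9 at SHB to 60.1 at the histone genes. The median -log10 q of each chain ran from 7.68 near CEBPB to 12.1 at SHB, beside 13.4 over all chained records. At PCDH1 and the histone genes the strongest records of the lists overlapped, and near CEBPB, at SHB and at LIPC they did not. At the histone genes the fold enrichment of that record was 11.5 in V2 and 9.89 in sg3. Histone genes have close copies and their placement is uncertain. The 8 chains with no V2 record, named after their values were seen, had 8 to 15 records and lay at RHOU, CDH23, ZMIZ1, ANKRD36C, ARHGEF3 and WDR38 or had LGALS9B and TRIB1 as nearest genes. Their highest -log10 q was 63.2, at WDR38, and for the rest it was 32.2 or lower.

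Of 19974 protein-coding genes, 1808 overlapped a dense sg3 chain, a background of 9.05% (95% CI 8.66 to 9.46%). The whole gene lay in the chain for 564 genes, or 2.82%, and 1531, or 7.66%, had a chained record within 1 kb of an end. A dense V2 chain overlapped 1148 genes, or 5.75%, and 1038, or 5.2%, overlapped dense chains of both lists. A single gene overlapped 792 of the 1552 chains, 2 or more genes overlapped 406, and 354 chains, or 22.8% (95% CI 20.7 to 25.0%), overlapped none. Of the 354, 209 overlapped an lncRNA gene, and 89 lay over 100 kb from the nearest protein-coding gene. Genes that overlap a chain were slightly longer than the rest, with medians of 27294 and 23941 bases. The share of genes follows the settings of the rule, from 4.64% with records of -log10 q 10 or more to 15% with a gap of 25 kb.

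The functional gene lists, chosen with earlier results of these data known, overlapped dense chains in 83 of 290 genes, or 28.6% (95% CI 23.5 to 34.2%). Of 75 markers of liver, neuron, blood, muscle, fibroblast and endothelium 7 did, or 9.33% (95% CI 3.84 to 18.3%), beside the background of 9.05%. Of 15 markers each, 1 did for liver (CYP2E1), 1 for neuron (DLG4), 0 for blood, 2 for muscle (TNNT3 and MB) and 3 for fibroblast and endothelium (COL1A1, VWF and CDH5, 20%, 95% CI 4.33 to 48.1%). ALB of liver, PTPRC of blood and DES of muscle overlapped none, while COL1A1 of fibroblasts and VWF and CDH5 of endothelium are defining markers that did. Gene lengths differ between lists, so that the median gene had 19987 bases in the functional lists and 24171 bases over all genes. The lists also differed for sg3 records of any kind, chained or not. Such a record lay within 1 kb of an end in 241 of the 290 functional genes and in 17 of the 75 markers. Over all protein-coding genes the share was 47.2%. The contrast between lists is therefore not particular to dense chains.

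Squamous transcription factors overlapped dense chains in 9 of 20 cases (45%, 95% CI 23.1 to 68.5%). Here and below, the records given for a gene are those of its whole chain, which can lie mostly outside the gene. TP63, the basal master regulator, overlapped a chain of 54 records, of which V2 overlapped 30, and most of the gene lies outside the chain, with no chained record within 1 kb of either end. GRHL2 and GRHL3, grainyhead-like factors of epithelial barriers, had 40 and 37 records, TFAP2A had 37, and ZNF750, a factor of terminal differentiation, had 33. The ETS factors EHF and ELF3 had 30 and 22, BARX2 had 12 and TRIM29 had 10. All 9 also overlapped a dense V2 chain. A further 3 factors, KLF5, KLF4 and TFAP2C, overlapped none but were the nearest gene of a gene-less chain, as 304 protein-coding genes were in all, a background of 1.52%. With these, 12 of 20 had a dense chain on them or a gene-less one nearest to them, beside 10.2% of all protein-coding genes. The longest gene-less chains had 112 records nearest KLF5, 38 records 98391 bases from TFAP2C and 25 records 551033 bases from KLF4. A nearest gene is a statement of distance only.

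Squamous structural genes overlapped dense chains in 13 of 24 cases (54.2%, 95% CI 32.8 to 74.4%). On the keratin cluster of chromosome 17, KRT13 and KRT15 shared a chain of 23 records, KRT14 had a chain of 10, and KRT16 and KRT17 shared a chain of 26 covered over 79.3%. V2 differed among these neighbours, with 25 records in the KRT13 and KRT15 chain, 35 in the KRT16 and KRT17 chain and 2 in the KRT14 chain, whose records were overlapped in 2 of 10 cases. KRT14, KRT16 and KRT17 have near-identical copies, so their records are uncertain. KRT4, a keratin of the oesophageal lining, had 26 records and 13 V2 records. S100A2 had 27 records, the plakophilin gene PKP1 25, P-cadherin CDH3 22, the 14-3-3 gene SFN 16, plakoglobin JUP 13 and desmoplakin DSP 9. IVL had 8 records and 2 V2 records, without a dense V2 chain. In this list 10 of the 13 also overlapped a dense V2 chain.

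AP-1 and immediate-early genes, which respond within minutes to growth signals and stress, overlapped in 12 of 21 cases (57.1%, 95% CI 34.0 to 78.2%). FOS lay in a chain of 68 records with 77 V2 records, and 52 of the 68 were overlapped. ATF3 had 51 records, the MAP kinase phosphatase DUSP1 48, KLF6 38 and the mRNA-decay factor ZFP36 21. IER2 had 17, IER3 15, the survival factor MCL1 14, FOSL2 13, IER5 and JUND 11 each and FOSL1 10. The IER5 chain was covered over 87.4% of its 59548 bases. FOSB and JUNB overlapped a dense V2 chain, of 12 and 8 records, and no dense sg3 chain. Their sg3 chains had 4 and 5 records that covered 77.8 and 94.5% of the span, so fewer and broader records stood there in sg3. The squamous factor OVOL1 was of the same kind, with 4 sg3 records and 16 V2 records. FOSB, JUNB and OVOL1 were named after their values were seen.

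Adhesion and matrix genes gave the highest share among the lists, 14 of 24 (58.3%, 95% CI 36.6 to 77.9%), and their median gene length of 56254 bases was also the highest. PLAU, the urokinase-type plasminogen activator, lay in a chain of 42 records, of which V2 overlapped 37. The gene of its receptor, PLAUR, reaches with 1 end into a chain of 41, of which V2 overlapped 30. The actinin gene ACTN4 had 36, TNS4 34 and the integrins ITGA6 29, ITGB1 18, ITGA3 10 and ITGA2 9. Most of the ITGB1 chain lies outside the gene. ACTN1 had 17, FLNA 16 and MYH9 13. Of the 14, 12 also overlapped a dense V2 chain, and ITGA3 and ITGA2 did not.

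In the NOTCH pathway 6 of 14 genes overlapped a dense chain (42.9%, 95% CI 17.7 to 71.1%). Beside HES1 these were the ligand JAG1 with 40 records, the receptor NOTCH1 with 24, the coactivator MAML2 with 23, and the targets HES4 and HEY1 with 16 each. The JAG1 chain was covered over 27.2% of its 126328 bases, and V2 overlapped 13 of its 40 records.

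Growth factor signalling genes overlapped in 5 of 21 cases (23.8%, 95% CI 8.22 to 47.2%), and in 1 of these, EGFR, the gene also overlapped a dense V2 chain. EGFR had 60 records, of which V2 overlapped 20, a lower share than the 97 of 115 of its inhibitor ERRFI1. The ligands TGFA and EREG had 15 and 9, and SPRED2 had 8. PHLDA1, DUSP4 and AREG were nearest to gene-less chains of up to 57, 49 and 11 records. Of the YAP and TEAD list 5 of 19 overlapped (26.3%, 95% CI 9.15 to 51.2%). They were PTPN14 with 20 records, AMOTL1 with 12, AMOTL2 with 11, WWTR1 with 10 and TEAD1 with 8. Of these 5, only PTPN14 also overlapped a dense V2 chain. The median gene of this list had 45702 bases, against 24171 bases over all genes. An end within 1 kb of a chained record was found in 2 of the 19, beside 7.66% of all genes. The tissue factor gene F3 was the nearest to a gene-less chain of 55. Of NF-kB and inflammation genes 4 of 20 overlapped (20%, 95% CI 5.73 to 43.7%), NFKBIA with 28, LIF with 22, BIRC3 with 10 and CXCL2 with 8.

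The remaining lists, like the growth factor and NF-kB lists, had shares whose intervals include the background of 9.05%. Of glycolysis and lactate genes 4 of 21 overlapped (19%, 95% CI 5.45 to 41.9%), the glucose transporter SLC2A1 and PGAM1 with 16 records each, hexokinase HK2 with 10 and the lactate exporter SLC16A3 with 8, each with a dense V2 chain. Of the TGF-beta and mesenchymal list 2 of 18 did, SMAD3 with 67 records and E-cadherin CDH1 with 21. Of chromatin acylation enzymes 3 of 23 did, HDAC5 with 33, SIRT2 with 18 and KAT8 with 10. Of cell cycle genes 3 of 24 did, CDKN1A and CDC20 with 10 each and CDK6 with 8. RPL10 and RPLP1 were 2 of 20 ribosomal protein genes, and RPL10 is uncertain because such genes have many near-identical copies. OGDH was 1 of 21 genes of the respiratory chain and TCA cycle (4.76%, 95% CI 0.12 to 23.8%). SIRT3 itself (chr11:215030-236931) lay in no dense chain. Its sg3 record stood alone as a chain of 1, and the nearest dense chain, of 12 records over the IFITM genes, was 48033 bases away.

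**Figure D5:**
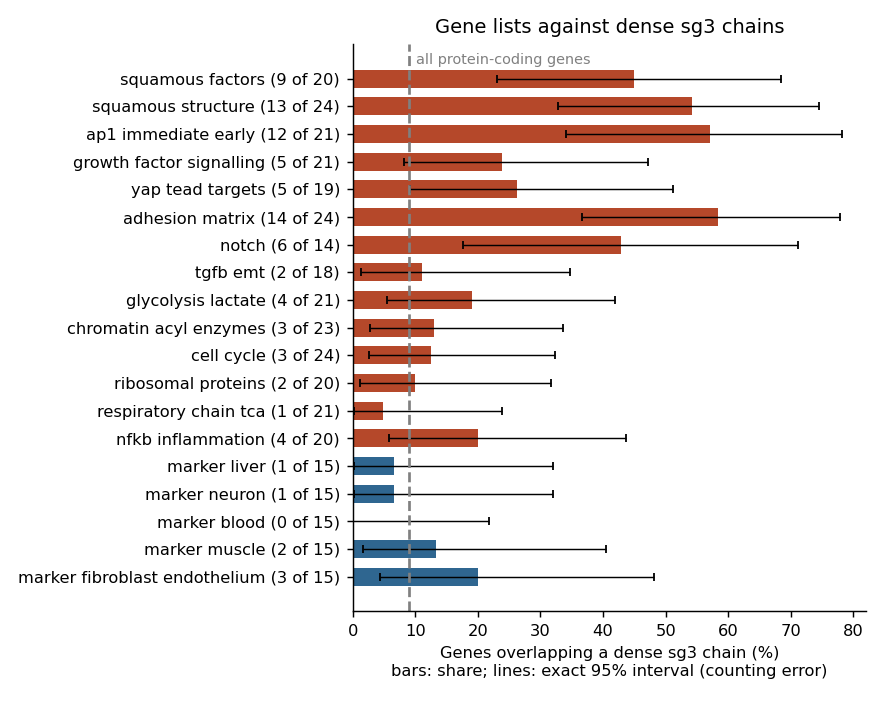
Percent of genes in each list that overlap a dense sg3 chain (bars, from 0) with exact 95% intervals for counting error (lines), and the number of genes in brackets. The dashed line is the 9.05% over all protein-coding genes. The intervals of the squamous, AP-1, adhesion, NOTCH and YAP lists lie above it, the last by little (9.15%). In the YAP list, 1 gene also overlapped a dense V2 chain, and the median gene had 45702 bases.

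Dense chains were spread unevenly over the chromosomes. Chromosome 19 had 13.7 chains per 10 Mb, chromosome 17 had 11.4 and the X chromosome 1.54. The chains took 6.23% of the length of chromosome 19 and 0.476% of the X chromosome. Overlap with a dense V2 chain was found for 77.5% of the 80 chains of chromosome 19, for 48.1% of the 52 chains of chromosome 5 and for 75% of the 24 chains of the X chromosome.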

How the data were processed

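The genome build was hg38, per the submitters' processing notes, which name the tools MACS2 2.2.9.1, Bowtie2 2.5.1, SAMtools 1.18 and Trim Galore 0.6.10. The authors deposited 1 narrowPeak list for each arm, taken as called on 1 library. The deposited columns are the fold enrichment, a ratio at the summit, the -log10 p and -log10 q, an integer score, and the summit offset as the other deposited value. The score, the -log10 p and the offset were not used. Neither the command line nor the control library or read depth is stated in the labels, and IgG libraries were not analysed here.

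Chaining, overlap (at least 1 base) and gene overlap were computed with Python 3.11.15, pandas 2.3.3 and numpy 2.4.6, and chaining and overlap were tested on simulated data. Intervals are exact Clopper-Pearson at 95% (scipy 1.17.1) and cover counting error only. With 1 library per arm no test was made and no p-value computed. Genes came from RefSeq GRCh38.p14 without strand or exons, and all list members matched by symbol. The chains, the 14 functional and 5 marker lists and the comparisons were chosen with earlier results of these data known.

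Chains were named by rule: the 10 with the most records, the 5 longest, the 5 with the highest covered share, the 5 with the strongest record, the 5 with the most records among those at most 1 in 4 of whose records V2 overlapped, and up to 5 with the largest V2 chain. The rule named SIRT3, up to 6 genes of each named chain and up to 8 overlapping members of each list, and further list members were named to complete a count. Some genes that the rule takes are not reported here. Alternatives changed the gap, the number of records, the thresholds on -log10 q and fold enrichment, the list length and the overlap rules.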

Additional observations from a re-analysis of the deposited data

Results flagged for a closer look

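Contigs other than chromosomes 1 to 22, X and Y were left out of every comparison, and they too hold dense chains. The same rule gave 41 dense sg3 chains on 27 such contigs, from 1688 sg3 records, with up to 23 records in a chain. The V2 list gave 21 dense chains there from 1045 records. They stand out because signal appears in data that the description above does not use, and many such contigs are alternate copies of chromosomal loci.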

How the results depend on the processing

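Read depth, which is unknown, limits every count, since a deeper library can give more records and so more chains. No paired analysis was possible because each arm has 1 library and no result comes from a test, and for the same reason no replicate could be left out. All alternatives were set with earlier results of these data known. Of 56 alternative values, 16 stayed within the interval of the main value (for the number of chains, within 1.5 times), and the other 40 follow. Their causes were not tested beyond what each setting changes by construction. A gap of 5 kb gave 59.7% of chains with a dense V2 chain, a median covered share of 56.1%, and chain overlap for 5.83% of all genes and 22.8% of list genes. A gap of 25 kb gave a covered share of 29.7%, 15% of all genes and 43.4% of list genes. At 6 records there were 2343 chains and 12.5% of all genes overlapped one. At 12 records there were 815 chains with a covered share of 45.4%, and 5.25% of all genes and 20.7% of list genes overlapped one. A -log10 q of at least 5 gave 8.22% of all genes. A -log10 q of at least 10 gave 800 chains, a covered share of 48.2%, 4.64% of all genes, 18.6% of list genes, and V2 overlap of 63.4% of chained and 47.1% of other records. A fold enrichment of at least 4 gave 965 chains, 67.2% of them with a dense V2 chain, a covered share of 45.9%, 5.09% of all genes, 20.7% of list genes and V2 overlap of 43.2% of records outside chains. Lists of equal length gave 946 chains, 84.6% of them with a dense V2 chain, a covered share of 47.4%, 5.49% of all genes, 21.4% of list genes, and V2 overlap of 74.8% of chained and 57.8% of other records. Dense V2 chains covered 50% or more of the span in 57.2% of chains, and V2 chains of 2 or more records overlapped 98.4%. V2 records covered 50% or more of 50.7% of chained and 38.0% of other records. Whole genes inside a chain came to 2.82% of all genes and 12.1% of list genes, and genes with an end within 1 kb of a chained record to 7.66% of all genes. The excess of V2 overlap in chained over other records ranged from 12.8 to 17.4 percentage points over the thresholds on -log10 q and fold enrichment, the lists of equal length and the 50% overlap, and was not recomputed for the other gaps and record numbers. The share of list genes ranged from 2.73 to 4.27 times that of all genes over the settings that change it.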
